A study of Homo sapiens with 38 samples.

Results

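The 24 h response of H9 cells to the small molecule CHIR99021 was compared with their 24 h response to an induced, stabilized beta-catenin. The comparison used 8 of the series' 38 samples, which are all samples at 0 h and 24 h of these arms by their labels, 2 to a group. For each gene the change in the bcat arm (24 h against 0 h) was subtracted from the change in the CHIR arm (24 h against 0 h), on a log2 scale. A positive difference therefore means a greater rise, or a smaller fall, with CHIR99021. H9 is an established human embryonic stem cell line, and it was grown without feeder cells.

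The CHIR 0 h group was untreated H9 in mTeSR1, a medium for pluripotent cells. The CHIR 24 h group had received 10 µM CHIR99021 in RPMI1640 with B27 lacking vitamin A. The bcat arm was an H9 line with a stably integrated, doxycycline-regulated deltaN90 beta-catenin. Its 0 h group was uninduced in mTeSR1, and its 24 h group had received 1 µg/ml doxycycline in the same RPMI1640 and B27 medium. The labels do not say whether the line is 1 clone. No sample at these hours received the new medium alone, doxycycline without the construct, or CHIR99021 in the bcat line. The subtraction takes out what the medium does alike in both arms, while the agent, doxycycline and the cell line cannot be told apart.

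In cells without a WNT signal, a complex built on AXIN and APC holds beta-catenin while the kinases CK1 and GSK3 phosphorylate its N-terminal end, which marks it for destruction. CHIR99021 inhibits GSK3, so the cell's own beta-catenin accumulates, but GSK3 also acts on many proteins outside this pathway, among them metabolic enzymes and transcription factors such as MYC. A deltaN90 beta-catenin lacks the N-terminal phosphorylation sites and escapes destruction while GSK3 stays active. In human pluripotent cells, beta-catenin acting with TCF and LEF factors induces feedback genes such as AXIN2 and the primitive streak genes of early mesoderm.

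Depth in the 8 libraries ran from 4.44 M estimated counts (bcat 0 h replicate 1) to 45.2 M (bcat 24 h replicate 2). Ribosomal RNA held 34.1% of bcat 0 h replicate 1 and 60.4% of bcat 24 h replicate 1, against 4.74% to 18.8% in the other 6. Mitochondrial transcripts held 7.68% to 13.2% of the CHIR libraries and 0.369% to 1.30% of the bcat libraries, at 0 h as well as at 24 h. Replicates correlated at r = 0.950 (bcat 0 h) or more across the genes tested. The summed level of 7 pluripotency markers (POU5F1, NANOG, SOX2, LIN28A, DNMT3B, L1TD1, TDGF1) was 4035 to 4650 CPM in the 0 h libraries, where CPM is counts per M after TMM scaling. Neural markers (PAX6, SOX1) summed to at most 0.801 CPM and endoderm markers (SOX17, FOXA2, CXCR4) to at most 3.58 CPM in any library. Fibroblast markers summed to 24.0 to 67.6 CPM and 4 amnion or trophoblast markers to 0.995 to 8.82 CPM, with GATA3 at 0 counts in all 8 libraries. The endothelial sum, 60.3 to 258 CPM, was nearly all KDR.

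Of 24304 genes tested, 1202 (4.95%) had a called difference between the arms, meaning an adjusted p below 0.05. The change was greater with CHIR99021 for 401 genes (1.65%) and smaller for 801 (3.3%), and 4367 genes had an unadjusted p below 0.05. The split depends on the scaling. With DESeq2 size factors in the same test, 1316 genes were called, 733 higher and 583 lower, and the median difference of all genes moved from -0.14 to -0.02 (log2). Without bcat 0 h replicate 1 and bcat 24 h replicate 1 together, 433 were called, 209 higher and 224 lower. With 1 library left out, the count was 666 and 695 (CHIR 0 h replicates 1 and 2), 717 and 720 (CHIR 24 h), 842 and 1023 (bcat 0 h) and 693 and 755 (bcat 24 h). In the arms themselves, 1435 genes rose (5.9%) and 2092 fell (8.61%) with CHIR99021, while 1670 rose (6.87%) and 1447 fell (5.95%) with induced beta-catenin. These splits move with the scaling too, to 1501 higher and 2081 lower in the bcat arm with DESeq2 size factors. With library sizes that leave out ribosomal and mitochondrial transcripts they were 2066 and 1591 in the CHIR arm and 2935 and 1174 in the bcat arm. Both arms called 1317 genes, 37.3% of the CHIR calls and 42.3% of the bcat calls. Of these, 542 rose in both, 692 fell in both and 83 went in opposite directions.

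**Figure D1:**
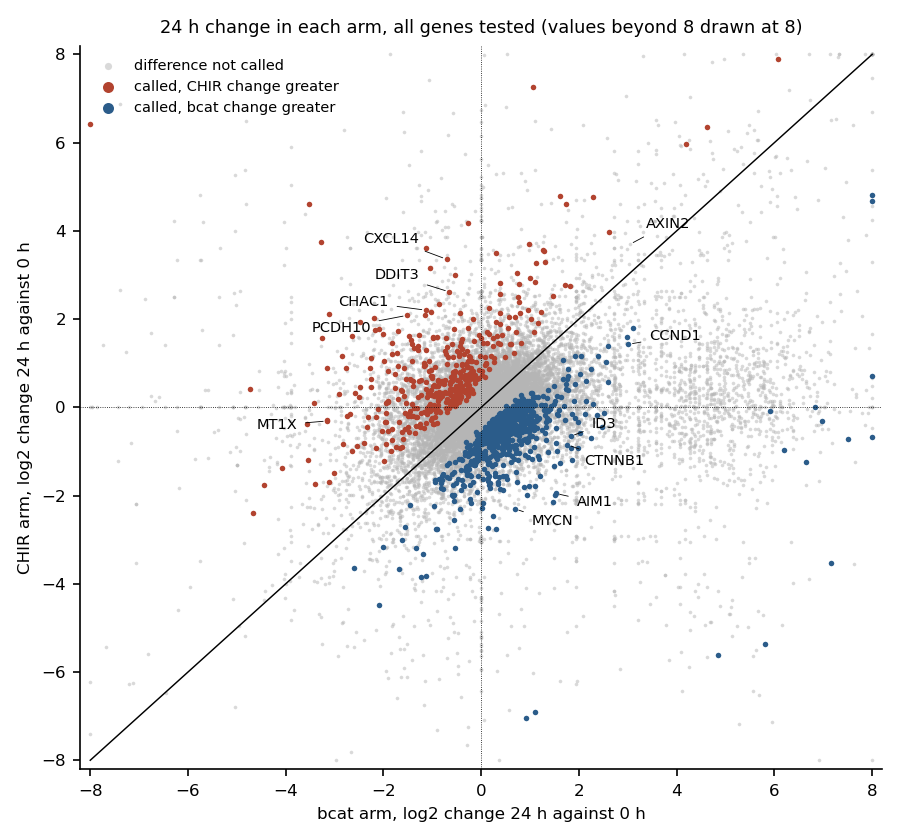
Log2 change at 24 h in the bcat arm (horizontal) and in the CHIR arm (vertical) for each of the 24304 genes tested, with the diagonal marking equal change. Red points are the 401 genes called with a greater change with CHIR99021 and blue points the 801 with a smaller one; AXIN2 lies near the diagonal, and CTNNB1, MYCN, AIM1 and ID3 lie where the arms moved in opposite directions.

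The untreated arms already differed. Against CHIR 0 h, bcat 0 h had 1475 genes higher (6.07%) and 2330 lower (9.59%), or 1998 and 1955 with DESeq2 size factors and 1180 and 3945 without ribosomal and mitochondrial transcripts. By arithmetic, a 24 h difference is the gap between the arms at 24 h plus the gap between bcat and CHIR at 0 h, so a gene can be called because the arms started apart and ended together. Of the 1202 called genes, the 0 h gap was itself called with the same sign for 624. The libraries of the arms lay apart in the direction of the difference at 24 h and not at 0 h for 259 genes, at 0 h and not at 24 h for 257, and at both hours for 686. The 0 h levels are therefore given below for the genes described in full. The gene lists below were chosen with earlier results of these data known. Their counts can be read beside the shares of all genes, 1.65% higher and 3.3% lower, as a description and not as a test.

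CTNNB1, which encodes beta-catenin, had the smallest adjusted p of all genes. Its level was 782 and 794 CPM at CHIR 0 h and 428 and 448 CPM at CHIR 24 h. It was 652 and 750 CPM at bcat 0 h and 2350 and 2393 CPM at bcat 24 h. The bcat 24 h libraries lay above all others and the CHIR 24 h libraries below all others, and the arms changed by -0.85 and 1.76 on the log2 scale. The difference was -2.60 ± 0.15 (log2 ± standard error, adjusted p = 6.47e-13). Reads of the construct and of the resident gene are not separated in these counts, so the bcat values check the induction and not the resident gene.

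Among the other 18 tested partners of beta-catenin and members of its destruction complex, the differences of GSK3B and TCF7L2 were called. GSK3B, the kinase that CHIR99021 inhibits, was 69.1 and 67.7 then 70.8 and 82.4 CPM in the CHIR arm, and 92.9 and 92.0 then 62.2 and 66.0 CPM in the bcat arm. Its difference was 0.69 ± 0.18 (adjusted p = 0.0197), and the call was lost on leaving out any of CHIR 0 h replicate 1, CHIR 0 h replicate 2, CHIR 24 h replicate 2, bcat 0 h replicate 2 or bcat 24 h replicate 1 (0.58 to 0.71, adjusted p 0.0508 to 0.119). TCF7L2, a TCF factor, fell with CHIR99021 from 25.3 and 24.0 to 10.4 and 9.97 CPM and was 27.6 and 28.8 then 26.5 and 22.2 CPM in the bcat arm. Its difference was -1.05 ± 0.31 (adjusted p = 0.0416), lost on leaving out any of the 8 libraries (-1.18 to -0.88, adjusted p 0.0518 to 0.168).

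The feedback and direct targets of WNT rose in both arms, 16 of 21 tested with CHIR99021 and 16 with induced beta-catenin, and their differences went both ways. AXIN2, the feedback inhibitor most used as a readout of the pathway, went from 19.8 and 20.3 to 239 and 280 CPM with CHIR99021 and from 24.1 and 25.2 to 229 and 177 CPM with induced beta-catenin. Its difference of 0.66 ± 0.28 was not called (adjusted p = 0.191), but DESeq2 (0.77, adjusted p = 0.0421) and the fit of the 8 libraries alone (0.75, adjusted p = 0.0473) called it. Over the 21 targets, 2 differences were called higher and 5 lower (33.3%, against 4.95% of all genes). The median was 0.58 against -0.14 for all genes tested. DESeq2 called 5 higher and 5 lower, among them DKK1, a secreted WNT inhibitor named after its value was seen (4.79, adjusted p = 1.05e-04). Without bcat 0 h replicate 2 the count was 3, all lower, and without both bcat libraries in doubt it was 1 higher and 3 lower.

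RNF43 and NKD1 were the called targets with a greater rise under CHIR99021. RNF43, a ubiquitin ligase that removes WNT receptors, went from 2.86 and 1.92 to 62.9 and 64.6 CPM with CHIR99021, and from 4.41 and 13.2 to 47.5 and 50.5 CPM with induced beta-catenin. Most of its difference lay at 0 h, where the bcat arm was higher by 2.11 (log2). At 24 h the CHIR arm was higher by 0.38. The difference was 2.48 ± 0.48 (adjusted p = 0.00291) and 1.30 (adjusted p = 0.353) without bcat 0 h replicate 2, the library at 13.2 CPM. NKD1, an inhibitor that binds Dishevelled, went from 2.91 and 6.89 to 313 and 333 CPM against 8.52 and 7.16 to 133 and 144 CPM, and its 24 h levels did not overlap. The difference was 1.79 ± 0.48 (adjusted p = 0.0321). It was 2.60 (adjusted p = 0.00326) without CHIR 0 h replicate 2, and on leaving out any of the other 7 libraries it was 1.36 to 1.95 and not called (adjusted p 0.0613 to 0.139).

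For the targets called lower, the arms also started apart. CCND1, which encodes cyclin D1, went from 78.4 and 78.9 to 201 and 222 CPM with CHIR99021 and from 23.2 and 26.2 to 204 and 200 CPM with induced beta-catenin, so that the 24 h levels met. The difference was -1.58 ± 0.25 (adjusted p = 2.08e-04). AMOTL2, an angiomotin that is also induced through YAP and TEAD, had the same course, from 44.3 and 41.7 to 84.7 and 90.5 CPM against 15.6 and 15.6 to 92.0 and 91.8 CPM (-1.53 ± 0.30, adjusted p = 0.00268). SP8, a zinc finger factor, rose from 16.6 and 15.7 to 57.7 and 53.9 CPM against 5.29 and 4.81 to 50.2 and 35.3 CPM. Its difference was -1.31 ± 0.31 (adjusted p = 0.00989), and it was not called without bcat 0 h replicate 2 (-1.22, adjusted p = 0.111), bcat 24 h replicate 1 (-0.998, adjusted p = 0.0721) or both bcat libraries in doubt (-1.06, adjusted p = 0.124).

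FZD7, a WNT receptor abundant in human pluripotent cells, moved in opposite directions. It fell from 271 and 261 to 179 and 193 CPM with CHIR99021 and rose from 154 and 161 to 310 and 316 CPM with induced beta-catenin. The difference was -1.50 ± 0.20 (adjusted p = 1.91e-05), and the arms lay apart at 0 h and, the other way round, at 24 h. Of 13 WNT ligands tested, WNT4 alone was called, 0.854 and 0.414 then 0.298 and 0.612 CPM against 6.76 and 2.46 then 0.383 and 0.541 CPM. Its difference of 2.85 ± 0.85 (adjusted p = 0.0478) was lost without CHIR 0 h replicate 2, either CHIR 24 h library, bcat 0 h replicate 1 or either bcat 24 h library (2.06 to 3.17, adjusted p 0.0539 to 0.417), and it was 3.502 without bcat 0 h replicate 2.

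Of 21 primitive streak genes tested, 13 rose and 0 fell with CHIR99021, and 9 rose and 1 fell with induced beta-catenin. MIXL1, a homeobox factor of the streak, was 0.201 and 0.385 CPM at CHIR 0 h and 148 in both libraries at CHIR 24 h. In the bcat arm it was 0 and 0.748 CPM at 0 h and 13.9 and 6.62 CPM at 24 h. T (brachyury), the T-box factor of nascent mesoderm, was 73.9 and 66.0 CPM at CHIR 24 h and 15.0 and 12.3 CPM at bcat 24 h, from at most 0.294 CPM in any 0 h library. The 24 h levels of both genes did not overlap between the arms, yet neither difference was called, with 4.70 ± 1.88 (adjusted p = 0.176) for MIXL1 and 2.13 ± 2.06 (adjusted p = 0.649) for T.

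EOMES, a T-box factor of mesendoderm, reached 74.9 and 71.3 CPM with CHIR99021 and 24.6 and 20.9 CPM with induced beta-catenin, and SP5, a transcription factor induced directly by WNT, reached 218 and 285 CPM against 104 and 82.8 CPM. LEF1, which partners beta-catenin on DNA, reached 52.9 and 57.4 CPM against 38.1 and 27.6 CPM. CDX2, a caudal-type factor of the posterior axis, was at 0 counts in all 4 libraries at 0 h. It was at least 796-fold higher at CHIR 24 h and at least 153-fold higher at bcat 24 h (3 counts in place of 0 over the group). These bounds scale with depth at 0 h, 21.7 M and 33.6 M counts for CHIR against 4.44 M and 9.26 M for bcat. They therefore do not compare the arms. For CDX2 the fitted gap at 24 h was 0.27 (log2), and the CHIR 24 h libraries did not all lie above the bcat 24 h libraries. None of these differences was called, at 0.24 ± 4.42 (adjusted p = 1) for EOMES, 1.04 ± 1.41 (adjusted p = 0.768) for SP5 and 0.92 ± 0.82 (adjusted p = 0.621) for LEF1. The bcat 0 h libraries held 1 count of EOMES and 1 of T in all. The errors of these 2 genes are wide, and a difference of several log2 units can be missed for them. Few counts at 0 h did not always prevent a call, as EBF3 and ZEB2 below also had 1 count there and were called. DESeq2 called MIXL1 (4.71, adjusted p = 1.77e-05).

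NODAL, the ligand that patterns the streak, went from 0.301 and 0.385 to 48.7 and 45.5 CPM with CHIR99021 and from 0.294 and 0.962 to 15.6 and 14.8 CPM with induced beta-catenin. Its difference was 2.76 ± 0.84 and missed the threshold (adjusted p = 0.0541). It was called by DESeq2, in the fit of 8 libraries, without the filter on low counts, on the deposited values rounded and with a replicate block (2.51 to 2.87, adjusted p 8.08e-04 to 0.0374). Over the 21 streak genes the difference was called higher for 1, FGF4, and lower for 0, with a median of 0.58. The share called, 4.76%, was near the 4.95% of all genes. The count higher was 5 with DESeq2, 3 in the fit of 8 libraries, 3 with the replicate block and 0 without bcat 0 h replicate 2. FGF17, a growth factor named after its values were seen, was at most 0.0296 CPM at CHIR 0 h and 0.896 and 1.55 CPM at CHIR 24 h, against 0 and 0.535 then 0.256 and 0.130 CPM, and DESeq2 was among 4 alternatives that called it (adjusted p = 2.99e-04), while edgeR did not (adjusted p = 0.0602). FGF4, a growth factor, was 0.402 and 0.444 then 2.09 and 0.900 CPM against 1.18 and 1.82 then 0.383 and 0.671 CPM (3.08 ± 0.64, adjusted p = 0.00364), not called without bcat 0 h replicate 2 (2.62, adjusted p = 0.172). It was 3.75 without CHIR 24 h replicate 2 and 3.67 without bcat 24 h replicate 2. The 5 mesoderm markers T, MIXL1, EOMES, TBX6 and MSGN1 summed to 299 and 288 CPM at CHIR 24 h and 55.1 and 41.4 CPM at bcat 24 h, from at most 2.37 CPM in any 0 h library. In bulk samples, fewer cells of a kind and less RNA per cell cannot be told apart.

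PCDH10 and CHAC1 were among the 14 largest differences in favour of CHIR99021, and their 0 h gap was not called. Nor was that of SCARB2, LYPD1, GABRB2, CNTFR and GRIN2A among these 14. PCDH10, a protocadherin of the cell surface, rose from 10.5 and 13.02 to 51.5 and 49.0 CPM with CHIR99021 and fell from 7.64 and 8.02 to 3.64 and 2.27 CPM with induced beta-catenin. The difference was 3.60 ± 0.44 (adjusted p = 1.69e-05). CHAC1, which degrades glutathione and is induced by ATF4, is described below with its group.

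The other large rises included genes of chemokine, neural receptor and transcription factor classes at low 0 h levels. CXCL14, a chemokine, went from 0.452 and 0.740 to 6.17 and 6.48 CPM with CHIR99021, against 2.94 and 2.99 to 1.79 and 1.84 CPM (4.06 ± 0.49, adjusted p = 4.52e-06). GABRB2, a subunit of the GABA-A receptor, went from 2.36 and 1.30 to 54.3 and 43.6 CPM against 3.23 and 3.53 to 10.2 and 10.8 CPM (3.19 ± 0.49, adjusted p = 2.08e-04). IRX1, an Iroquois homeobox factor, went from 0.653 and 0.651 to 4.88 and 5.58 CPM against 2.35 and 2.46 to 1.85 and 1.52 CPM (3.55 ± 0.57, adjusted p = 2.08e-04). In each of these, all CHIR 24 h libraries lay above all bcat 24 h libraries. For CXCL14 and IRX1 the larger part of the difference still came from the higher bcat level at 0 h. That gap was 2.27 (log2) against 1.80 at 24 h for CXCL14, and 1.88 against 1.66 for IRX1. LYPD1, a membrane-anchored protein of the Ly6 family, was also apart at 24 h, from 1.21 and 1.78 to 6.27 and 8.93 CPM against 3.23 and 3.53 to 1.85 and 1.88 CPM (3.21 ± 0.58, adjusted p = 9.67e-04).

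For HRASLS5 and ITGAM the gap lay mainly at 0 h. HRASLS5, an acyltransferase, went from 4.77 and 3.96 to 8.26 and 7.81 CPM with CHIR99021 and from 28.5 and 24.6 to 5.62 and 5.33 CPM with induced beta-catenin (3.15 ± 0.39, adjusted p = 5.18e-06). ITGAM, an integrin subunit best known from myeloid cells, went from 0.452 and 0.533 to 1.59 and 0.792 CPM against 7.05 and 3.85 to 0.639 and 0.779 CPM (4.01 ± 0.76, adjusted p = 0.00145). GABBR2, a subunit of the GABA-B receptor, was 1.16 and 1.01 then 6.47 and 2.67 CPM against 5.58 and 7.48 then 2.81 and 0.541 CPM, with overlapping 24 h levels. Its difference was 4.21 ± 0.85 (adjusted p = 0.00388), and it was 3.497 without CHIR 24 h replicate 1, 5.68 without bcat 24 h replicate 1 and 3.27 without bcat 24 h replicate 2. The fit of 8 libraries gave 4.297 and did not call it (adjusted p = 0.0526).

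The remaining 4 of these 14 rested on particular libraries. CNTFR, the receptor of ciliary neurotrophic factor, was 1.36 and 0.621 then 11.04 and 9.90 CPM against 2.06 and 2.14 then 3.96 and 1.77 CPM (3.19 ± 0.68, adjusted p = 0.00596), and was not called without bcat 0 h replicate 2 (3.16, adjusted p = 0.138). It was 3.78 without bcat 24 h replicate 1 and 2.59 without bcat 24 h replicate 2. SCARB2, a lysosomal membrane protein, was 2.76 and 3.97 then 11.2 and 7.63 CPM against 13.2 and 7.38 then 1.53 and 3.68 CPM. Its difference (3.27 ± 0.77, adjusted p = 0.0133) was not called without CHIR 0 h replicate 1, CHIR 24 h replicate 1, bcat 0 h replicate 1 or bcat 24 h replicate 1 (2.88 to 3.05, adjusted p 0.0532 to 0.0670), and was 4.12 without bcat 24 h replicate 2. CSMD1, a large membrane protein, was 0.352 and 0.681 then 6.47 and 3.56 CPM against 5.29 and 2.03 then 1.79 and 1.41 CPM. Its difference (4.21 ± 1.06, adjusted p = 0.0207) was not called without either CHIR 0 h library, CHIR 24 h replicate 1, bcat 0 h replicate 1 or bcat 24 h replicate 2 (3.55 to 4.83, adjusted p 0.0525 to 0.105), and was 4.91 without bcat 0 h replicate 2. GRIN2A, a subunit of the NMDA receptor, gave 3.18 ± 0.88 (adjusted p = 0.0428). Of the fits with 1 library left out, only those without CHIR 24 h replicate 1 or bcat 0 h replicate 1 kept the call. The others gave 2.19 to 3.31. The call was also lost without the filter on low counts (3.09), on the deposited values rounded (3.07) and without both bcat libraries in doubt (3.51).

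**Figure D2:**
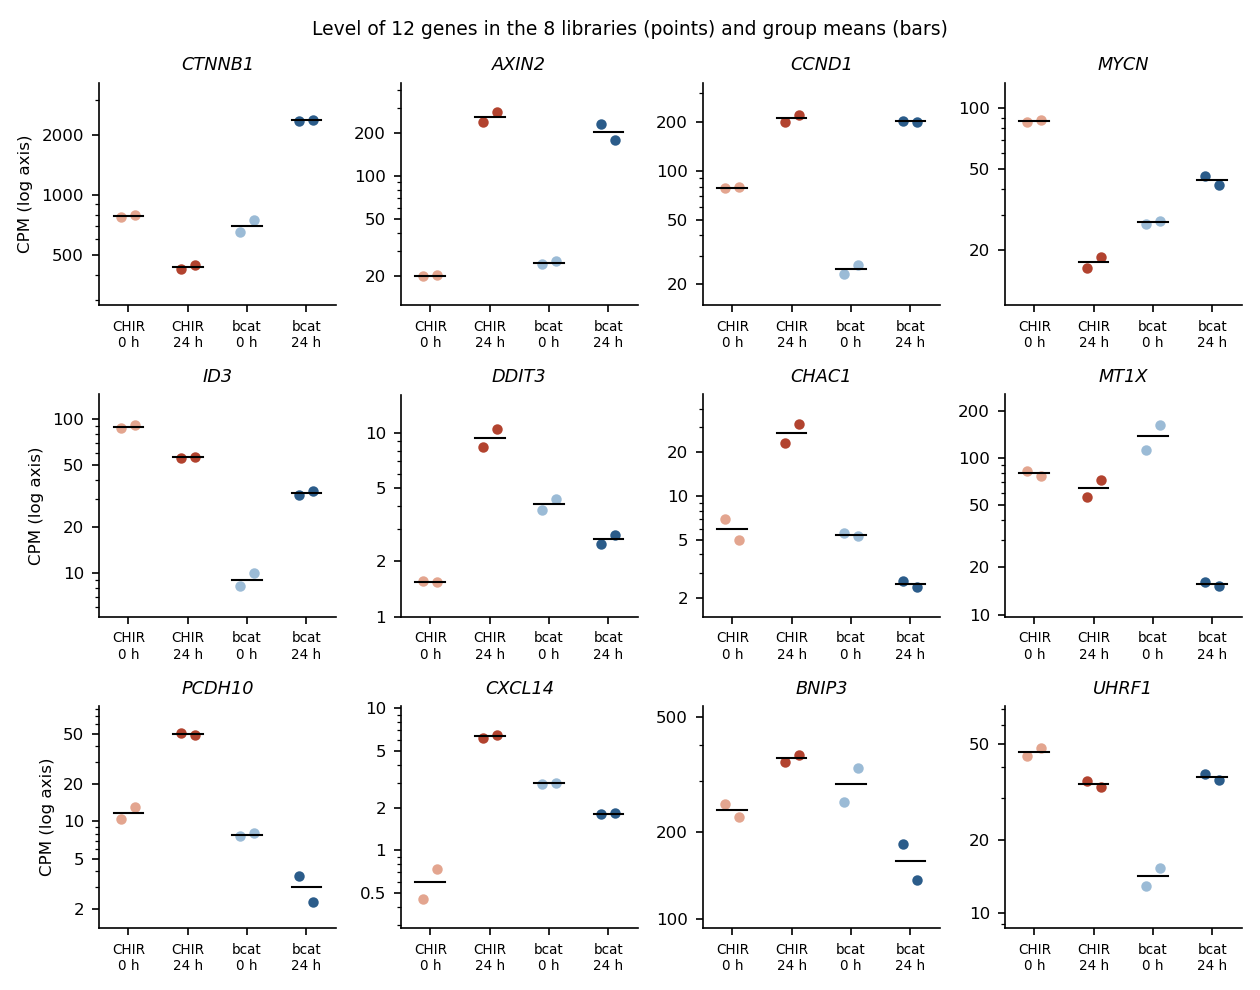
Level of 12 genes in CPM on a log axis, with 1 point for each of the 8 libraries and a bar at the mean of each group of 2. CTNNB1, MYCN, ID3, CHAC1 and PCDH10 moved in opposite directions in the arms, AXIN2 rose in both arms, and CCND1 and UHRF1 started apart and ended close together.

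MYCN, a MYC family transcription factor, led the genes called lower after CTNNB1. It fell from 85.8 and 87.5 to 16.3 and 18.6 CPM with CHIR99021 and rose from 27.0 and 27.8 to 46.6 and 42.1 CPM with induced beta-catenin. The difference was -2.99 ± 0.19 (adjusted p = 6.38e-12), and the order of the arms reversed between 0 h and 24 h. MXD4, which competes with MYC proteins for their partner MAX, moved the same way, from 19.9 and 19.1 to 5.77 and 5.54 CPM against 6.76 and 11.4 to 20.3 and 21.4 CPM (-2.89 ± 0.28, adjusted p = 1.48e-07). MYC itself fell in both arms, from 54.3 and 48.7 to 11.1 and 10.8 CPM with CHIR99021 and from 22.6 and 21.7 to 9.58 and 12.6 CPM with induced beta-catenin. Its difference was -1.26 ± 0.33 (adjusted p = 0.0229), not called without CHIR 0 h replicate 1, either CHIR 24 h library, either bcat 0 h library or bcat 24 h replicate 2 (-1.28 to -1.03, adjusted p 0.0530 to 0.144).

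AIM1, a crystallin-like protein, fell from 45.0 and 44.6 to 11.4 and 11.7 CPM with CHIR99021 and rose from 29.4 and 26.1 to 86.1 and 72.1 CPM with induced beta-catenin (-3.48 ± 0.32, adjusted p = 8.05e-08). EXPH5, a protein of vesicle transport, had overlapping 0 h levels, at 10.1 and 7.81 CPM in one arm and 7.93 and 10.1 CPM in the other. It was 1.99 and 1.37 CPM at CHIR 24 h and 12.3 and 9.48 CPM at bcat 24 h (-2.71 ± 0.48, adjusted p = 7.29e-04). MPPED2, a phosphodiesterase, also overlapped at 0 h, at 2.96 and 2.16 against 3.23 and 1.60 CPM, and ended at 1.39 and 1.30 against 6.90 and 8.46 CPM (-2.76 ± 0.52, adjusted p = 0.00151). For these 3 genes all CHIR 24 h libraries lay below all bcat 24 h libraries.

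EBF3, GBX2, ZEB2 and DNAJC15 rose in the bcat arm from 0 to 2 counts over both 0 h libraries. EBF3, a transcription factor of neural and mesodermal lineages, had 1 count at bcat 0 h and reached 5.43 and 4.61 CPM, a ratio of 61.5 (95% counting interval 11.03 to 2428), while it was at most 0.360 CPM in the CHIR arm. GBX2, a homeobox factor of the early posterior neural plate, rose in both arms to overlapping levels, 64.0 and 76.8 CPM with CHIR99021 and 82.9 and 70.3 CPM with induced beta-catenin. It started at 2.51 and 2.96 CPM in the CHIR arm and at 2 counts in the bcat arm, where the ratio was 469 (130 to 3871). ZEB2, a zinc finger factor of epithelial-mesenchymal transition, likewise ended at 57.7 and 54.3 against 56.5 and 37.3 CPM, from 2.31 and 1.78 CPM and from 1 count (ratio 537, 96.4 to 21220).

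The calls were adjusted p = 0.00134 for EBF3, 0.00134 for GBX2 and 0.0133 for ZEB2, with fitted differences of -6.01, -4.21 and -4.32 that depend on the prior count. EBF3 was -11.50 without CHIR 24 h replicate 2 and -9.95 without bcat 0 h replicate 2, and GBX2 was -9.12 without bcat 0 h replicate 2. The ZEB2 call was lost without bcat 0 h replicate 1 or 2 (-3.88 and -8.27, adjusted p 0.0685 and 0.168). DNAJC15, a co-chaperone of mitochondria that is silenced in some cell lines, was at 0 counts at bcat 0 h and 1.79 and 1.34 CPM at bcat 24 h, at least 6.19-fold higher, and 11.2 to 22.9 CPM in the CHIR arm (adjusted p = 0.00518). Its call was lost without bcat 0 h replicate 2 (adjusted p = 0.163).

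Of the other genes named by size, PDGFB, a growth factor, fell with CHIR99021 from 5.42 and 4.59 to 0.497 and 0.864 CPM and was 3.66 to 6.39 CPM in the bcat arm. Its difference of -2.86 ± 0.72 (adjusted p = 0.0196) was lost without CHIR 0 h replicate 1, either CHIR 24 h library, bcat 0 h replicate 2 or bcat 24 h replicate 1 (-3.44 to -2.41, adjusted p 0.0599 to 0.1003). PSD4, an exchange factor of the GTPase ARF6, gave -2.93 ± 0.72 (adjusted p = 0.0140), lost without CHIR 0 h replicate 1, CHIR 24 h replicate 2 or bcat 0 h replicate 2 (-2.84 to -2.45, adjusted p 0.0874 to 0.0922). RASGEF1B, an exchange factor of RAS-family proteins, gave -2.92 ± 0.65 (adjusted p = 0.00796), lost without CHIR 24 h replicate 2 (-2.66, adjusted p = 0.0668), and -4.92 without bcat 0 h replicate 2. ANKHD1-EIF4EBP3 is a readthrough transcript and ZBED6 lies inside ZC3H11A, so their reads are shared with other genes and both values are uncertain.

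In the amino acid and ATF4 response list, all called differences were higher with CHIR99021. Its members, as those of the other lists, were chosen with earlier results of these data known. ATF4 is the transcription factor made when translation is restrained by stress or lack of amino acids, and its targets supply amino acids and, under long stress, include DDIT3 and CHAC1. Of 22 members tested, 9 differences were called higher and 0 lower, against 1.65% and 3.3% of all genes, with a median of 0.61 against -0.14. With CHIR99021 14 of the 22 rose and 0 fell, while with induced beta-catenin 5 rose and 6 fell. The count was 9 with DESeq2 size factors, 7 to 9 with any of the 8 libraries left out and 8 without both bcat libraries in doubt. CHAC1 was 6.98 and 5.06 then 23.1 and 31.4 CPM in the CHIR arm and 5.58 and 5.35 then 2.62 and 2.38 CPM in the bcat arm. The arms overlapped at 0 h and lay apart at 24 h, and the difference was 3.33 ± 0.43 (adjusted p = 1.08e-05).

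DDIT3, which encodes the stress factor CHOP, went from 1.56 and 1.54 to 8.36 and 10.5 CPM against 3.82 and 4.38 to 2.49 and 2.77 CPM (3.27 ± 0.51, adjusted p = 1.51e-04). ATF3, another stress-induced factor, went from 5.93 and 9.47 to 24.6 and 24.3 CPM and was 10.3 to 11.6 CPM in all bcat libraries (1.70 ± 0.33, adjusted p = 0.00179). VLDLR, a lipoprotein receptor, was called from its fall in the bcat arm, 137 and 141 to 35.1 and 37.3 CPM against 57.9 and 61.0 to 54.0 and 54.6 CPM (1.81 ± 0.22, adjusted p = 4.33e-06). Named after their values were seen, ATF4 itself was 213 and 207 then 348 and 394 CPM against 145 and 151 then 139 and 160 CPM (0.81 ± 0.16, adjusted p = 0.00209). MTHFD2, a mitochondrial folate enzyme, rose from 218 and 238 to 331 and 366 CPM with CHIR99021 and fell from 237 and 283 to 158 and 186 CPM with induced beta-catenin (1.22 ± 0.20, adjusted p = 2.41e-04). TRIB3, a further ATF4 target also named after its value was seen, gave 0.03 ± 0.39 (adjusted p = 1).

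The promoters of 18 of the 22 members could be matched in RefSeq (GRCh38.p14), and their 250 bases before the start were searched on both strands for TGATGNAA, the core of the composite site that ATF4 forms with C/EBP proteins. It was present in 4 of the 18 and in 3.14% of all 35116 promoters. Of the 7 called members that matched, CHAC1, ATF3 and ASNS held it. The 100-base windows below, 5′ to 3′ on the gene's strand, are shown because these 3 genes carry the called difference and the core together, with the match in capitals.
CHAC1 (chr15:40953221-40953320, plus strand): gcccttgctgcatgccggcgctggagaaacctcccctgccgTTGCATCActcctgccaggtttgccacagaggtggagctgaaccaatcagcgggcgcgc
ATF3 (chr1:212565157-212565256, plus strand): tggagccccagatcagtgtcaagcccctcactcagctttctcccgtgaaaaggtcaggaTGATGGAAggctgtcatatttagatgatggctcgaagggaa
ASNS (chr7:97872439-97872538, minus strand): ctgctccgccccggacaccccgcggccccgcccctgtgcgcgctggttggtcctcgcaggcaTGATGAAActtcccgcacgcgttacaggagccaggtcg
ASNS, asparagine synthetase, named after its values were seen, was 160 and 159 then 176 and 198 CPM against 134 and 157 then 98.0 and 109 CPM. Its difference was 0.72 ± 0.17 (adjusted p = 0.0117), lost without CHIR 24 h replicate 2 or bcat 0 h replicate 2 (0.60 to 0.64, adjusted p 0.0713 to 0.0833). A match of these letters describes the sequence and is not a measured site. Cores for the WNT target and YAP-TEAD lists were searched too. CTTTGAT, a TCF/LEF core, was present in 1 of 12 matched WNT targets, in 0 of the 3 called and in 2.26% of all promoters. GGAATG, a TEAD core, was present in 3 of 9 matched YAP-TEAD targets, in 1 of the 4 called (CTGF) and in 11.9% of all promoters.

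Glycolytic and hypoxia-induced genes fell less with CHIR99021. Of 25 tested, 13 fell in the CHIR arm and 17 in the bcat arm. The difference was called higher for 10 and lower for 1, against 1.65% and 3.3% of all genes, with a median of 0.47. With DESeq2 size factors the counts were 13 and 1, and without both bcat libraries in doubt 8 and 0. Leaving out CHIR 24 h replicate 2 gave the fewest, 6 and 1. ENO2, an enolase, was 132 and 114 then 145 and 155 CPM against 217 and 248 then 108 and 92.1 CPM (1.51 ± 0.19, adjusted p = 1.02e-05). BNIP3, which acts in the removal of mitochondria and is induced by HIF, rose from 250 and 226 to 349 and 371 CPM with CHIR99021 and fell from 254 and 334 to 182 and 137 CPM with induced beta-catenin (1.49 ± 0.20, adjusted p = 2.36e-05).

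Among the abundant enzymes of glycolysis, PGK1 and LDHA fell in both arms and ALDOA in the bcat arm. PGK1, phosphoglycerate kinase, was 1703 and 1643 then 954 and 1077 CPM with CHIR99021 and 1690 and 2047 then 581 and 660 CPM with induced beta-catenin (0.87 ± 0.16, adjusted p = 0.00131). LDHA, lactate dehydrogenase, gave 0.77 ± 0.17 (adjusted p = 0.00455) and ALDOA, an aldolase, 0.77 ± 0.17 (adjusted p = 0.00498). These 3 were named after their values were seen, and such genes have processed pseudogenes that can share their reads. VEGFA, the vascular growth factor, gave 1.01 ± 0.23 (adjusted p = 0.00732), lost without both bcat libraries in doubt (adjusted p = 0.0617). PFKP, a phosphofructokinase, gave 0.90 ± 0.21 (adjusted p = 0.00884), lost without CHIR 24 h replicate 2 or bcat 0 h replicate 2 (0.79 to 0.81, adjusted p 0.0504 to 0.0620). ADM, adrenomedullin, was the 1 called lower. It fell from 84.2 and 96.3 to 18.4 and 21.4 CPM with CHIR99021 and was 26.2 and 46.1 then 37.6 and 38.8 CPM in the bcat arm (-2.20 ± 0.47, adjusted p = 0.00750), lost without both bcat libraries in doubt (-1.90, adjusted p = 0.0933).

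**Figure D3:**
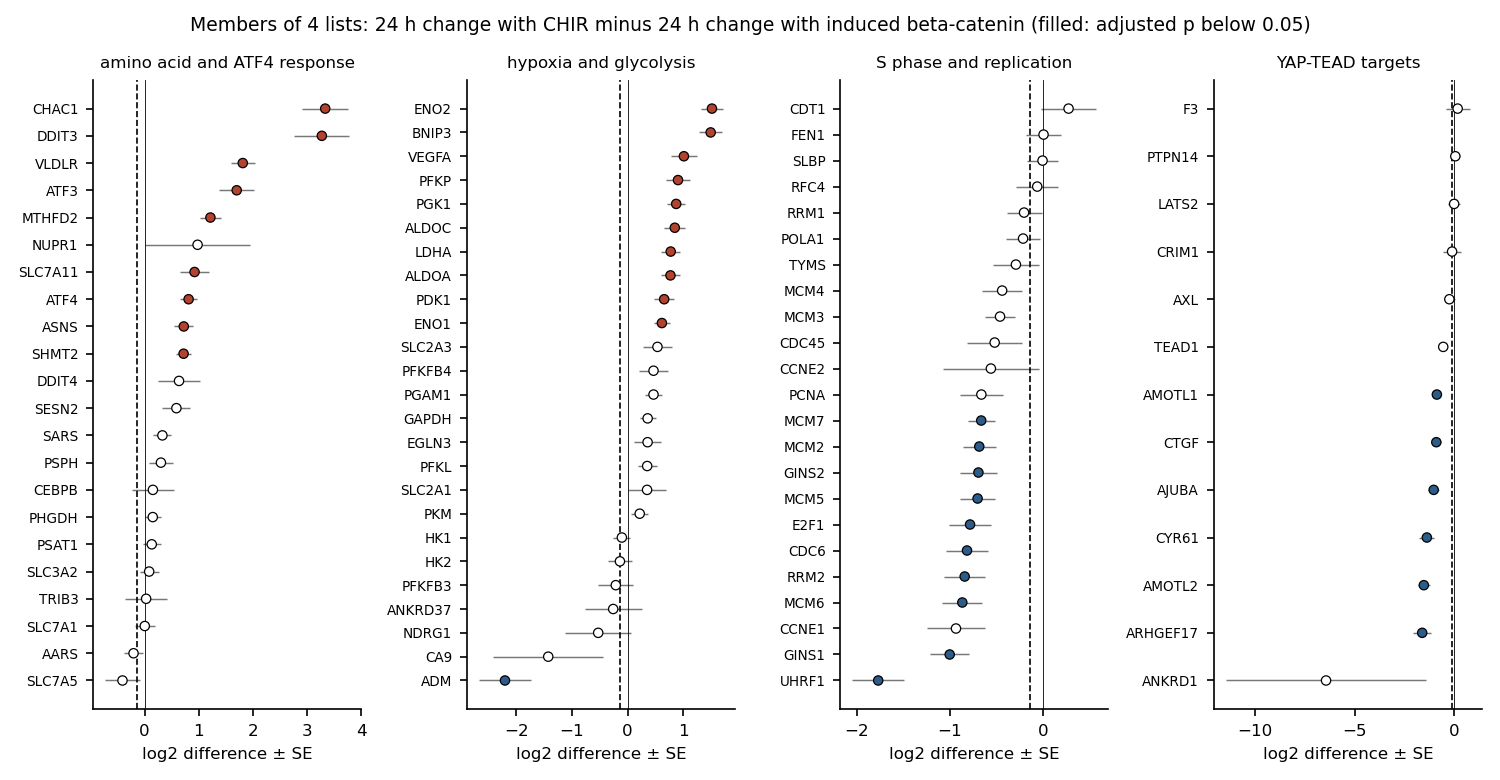
Log2 difference with its standard error for each tested member of 4 gene lists, with filled points for adjusted p below 0.05 and a dashed line at the median of all genes, -0.14. The ATF4 and glycolysis lists hold 9 and 10 called points to the right of 0, and the S phase and YAP-TEAD lists hold 10 and 6 called points to the left; the bar of ANKRD1, a gene of few counts, sets the width of the last panel.

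Metallothioneins bind zinc and copper. Of 9 genes of this list tested, with the zinc exporter SLC30A1 among them, 4 fell and 0 rose in the bcat arm, and 1 fell and 1 rose with CHIR99021. MT1X was 83.3 and 77.3 then 56.8 and 72.2 CPM in the CHIR arm and 113 and 162 then 16.1 and 15.2 CPM in the bcat arm. The bcat 24 h libraries lay below every other library, and the difference was 2.84 ± 0.28 (adjusted p = 3.10e-07). MT1G was 43.4 and 35.4 then 25.8 and 31.3 CPM against 22.3 and 33.0 then 6.20 and 5.17 CPM (1.88 ± 0.28, adjusted p = 9.58e-05). SLC30A1, the zinc exporter of the cell surface, differed by a rise in the CHIR arm, from 18.7 and 21.7 to 83.5 and 79.3 CPM, against 63.2 and 82.4 then 73.6 and 57.0 CPM (2.18 ± 0.36, adjusted p = 6.31e-04). Most of this difference lay at 0 h, where the bcat arm was higher by 1.86 (log2). At 24 h the CHIR arm was higher by 0.32. The difference was called higher for 3 and lower for 0, with a median of 0.81, and the count was 3 with any of the 8 libraries left out. The share of the list called was 33.3%, against 4.95% of all genes. Members of the MT1 family share sequence, so the split of reads between them is uncertain.

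Of 18 interferon response genes tested, IFITM1 and IFITM2, membrane proteins that hinder viral entry, were called (11.1%, against 4.95% of all genes). IFITM1 was 141 and 140 then 172 and 169 CPM against 177 and 189 then 87.3 and 95.6 CPM (1.28 ± 0.17, adjusted p = 1.62e-05). IFITM2 gave 0.98 ± 0.16 (adjusted p = 2.90e-04), also from a fall in the bcat arm, and its reads can be shared with its close relatives. The list median was -0.17, near that of all genes. Of 16 glucocorticoid-responsive genes, 2 were called higher and 4 lower (37.5%, against 4.95% of all genes), with a median of -0.65. The lower count was 2 without CHIR 24 h replicate 1 or bcat 24 h replicate 2 and 1 without both bcat libraries in doubt. MT1X is one of the 2, and the other, TSC22D3, was 11.2 and 10.7 then 17.7 and 22.5 CPM against 19.4 and 22.8 then 17.4 and 19.4 CPM (1.10 ± 0.23, adjusted p = 0.00367). Most of the TSC22D3 difference lay at 0 h, 0.97 (log2) against 0.14 at 24 h, where the libraries of the arms overlapped. ERRFI1, an inhibitor of EGF receptors, fell from 48.3 and 47.1 to 13.9 and 14.2 CPM against 27.0 and 30.0 to 17.7 and 20.8 CPM (-1.19 ± 0.22, adjusted p = 0.00135).

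Cholesterol synthesis genes fell in both arms, 24 of 25 with CHIR99021 and 23 of 25 with induced beta-catenin. The differences were called higher for 2 and lower for 1 (12%, against 4.95% of all genes), with a median of -0.06. IDI1, an isomerase of the pathway, was the 1 called lower. It fell from 118 and 108 to 38.5 and 33.9 CPM against 46.7 and 62.7 to 29.1 and 29.1 CPM (-0.71 ± 0.19, adjusted p = 0.0282), and the call was lost without CHIR 0 h replicate 1, CHIR 24 h replicate 2, bcat 0 h replicate 1 or either bcat 24 h library (-0.71 to -0.52, adjusted p 0.0767 to 0.163).

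Genes of DNA replication were called lower in 10 of 23 and higher in 0, against 3.3% and 1.65% of all genes, with a median of -0.66. With induced beta-catenin 8 of the 23 rose and 0 fell, while with CHIR99021 0 rose and 4 fell. The arms also started apart, with 15 of the 23 lower at bcat 0 h than at CHIR 0 h. The count was 7 with DESeq2 size factors, 3 when bcat 0 h replicate 1, bcat 24 h replicate 1 or CHIR 0 h replicate 2 was left out, 4 for either CHIR 24 h library, 5 for bcat 24 h replicate 2, 6 for CHIR 0 h replicate 1, and 1 without both bcat libraries in doubt. UHRF1, which carries DNA methylation through replication, was that 1. It was 44.4 and 48.0 then 35.0 and 33.3 CPM with CHIR99021 and 12.9 and 15.4 then 37.6 and 35.5 CPM with induced beta-catenin, so the arms ended close together. The difference was -1.77 ± 0.28 (adjusted p = 2.06e-04).

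In the 250 bases before the start, TTCCCGC, a core bound by E2F factors, was present on either strand in 10 of 20 matched S phase members and in 5.52% of all promoters, and in 3 of the 9 matched members called. A 100-base window before UHRF1 (RefSeq GRCh38.p14) is shown as that of the member whose difference held under each alternative, with the core in capitals.
UHRF1 (chr19:4909387-4909486, plus strand): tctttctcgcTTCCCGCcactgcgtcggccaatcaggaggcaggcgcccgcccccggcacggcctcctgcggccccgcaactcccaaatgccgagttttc
Of the others, GINS1, a replication fork subunit, was 104 and 111 then 69.4 and 76.3 CPM against 57.3 and 73.9 then 85.1 and 94.6 CPM. It gave -1.001 ± 0.21 (adjusted p = 0.00413) and was lost only without both bcat libraries in doubt (-0.90, adjusted p = 0.0621). Mitotic genes were called lower in 6 of 23 and higher in 0, against 3.3% and 1.65% of all genes, with a median of -0.42. BUB1B, a kinase of the spindle checkpoint, fell from 205 and 222 to 131 and 122 CPM with CHIR99021 and was 175 and 173 then 188 in both libraries in the bcat arm (-0.87 ± 0.15, adjusted p = 6.93e-04). The mitotic count was 2 when replicate 1 of CHIR 24 h or bcat 0 h, or CHIR 0 h replicate 2, was left out, 3 for CHIR 24 h replicate 2 or either bcat 24 h library, 4 for CHIR 0 h replicate 1, and 1 without both bcat libraries in doubt.

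Of the ID genes, targets of BMP signalling whose products block basic helix-loop-helix factors, ID1 and ID3 moved in opposite directions in the arms. ID3 fell from 86.9 and 90.8 to 55.9 and 56.6 CPM with CHIR99021 and rose from 8.23 and 9.94 to 32.1 and 34.2 CPM with induced beta-catenin (-2.48 ± 0.21, adjusted p = 3.64e-09). It stayed higher in the CHIR arm at both hours. ID1 fell from 9.24 and 8.88 to 5.08 and 4.90 CPM and rose from 19.4 and 18.4 to 29.4 and 32.3 CPM (-1.59 ± 0.31, adjusted p = 0.00179), and its order at 0 h was the reverse of that of ID3. ID2 rose in both arms and its difference was not called (-0.22 ± 0.26, adjusted p = 0.712). ID4 fell with CHIR99021 from 6.53 and 5.92 to 2.19 and 1.94 CPM and was 5.58 and 3.21 then 5.43 and 3.64 CPM in the bcat arm (-1.74 ± 0.47, adjusted p = 0.0263). Its call was lost on leaving out any 1 of the CHIR libraries, bcat 0 h replicate 2 or bcat 24 h replicate 1 (-1.81 to -1.27, adjusted p 0.0527 to 0.225). Of 20 BMP genes tested, 3 were called lower and 1 higher (20%, against 4.95% of all genes), with a median of -0.23. For BMP7 most of the difference lay at 0 h, 1.92 (log2) against 0.37 at 24 h. BMP7, the ligand called higher, went from 4.42 and 6.57 to 16.4 and 16.6 CPM against 25.6 and 17.6 to 10.99 and 14.3 CPM (2.28 ± 0.43, adjusted p = 0.00158), and was lost without both bcat libraries in doubt (1.89, adjusted p = 0.0551).

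In the NODAL pathway 2 of 19 were called higher (10.5%, against 4.95% of all genes), with a median of 0.12. GDF3, a ligand of this family, was 2.36 and 2.99 then 2.59 and 2.34 CPM against 3.23 and 3.85 then 0.383 and 0.649 CPM (2.53 ± 0.50, adjusted p = 0.00246). LEFTY1, a NODAL antagonist at 0.251 to 2.06 CPM, gave 2.91 ± 0.73 (adjusted p = 0.0171), lost without CHIR 0 h replicate 1, CHIR 24 h replicate 2 or either bcat 0 h library (2.60 to 3.21, adjusted p 0.0582 to 0.111), and it was 3.58 without CHIR 0 h replicate 2 and 3.76 without bcat 24 h replicate 2. Of 18 NOTCH genes 3 were called higher (16.7%, against 4.95% of all genes), with a median of 0.17. DLL3, a NOTCH ligand of the presomitic mesoderm, led them for stability. It was 9.60 and 10.3 then 9.15 and 12.1 CPM against 13.8 and 23.8 then 5.30 and 5.24 CPM (2.03 ± 0.35, adjusted p = 6.54e-04). The NOTCH count was 1 when either CHIR 0 h library or CHIR 24 h replicate 2 was left out. It was 2 for CHIR 24 h replicate 1, bcat 0 h replicate 1 or bcat 24 h replicate 1, 1 higher and 2 lower for bcat 0 h replicate 2, and 1 higher and 1 lower for bcat 24 h replicate 2. Of 20 FGF-ERK feedback genes, 1 was called higher and 2 lower, against 1 and 0 without bcat 0 h replicate 1 and 1 and 4 without bcat 0 h replicate 2. The share of this list called was 15%, against 4.95% of all genes. ETV5, an ETS factor induced by FGF, fell from 60.3 and 62.2 to 43.5 and 48.2 CPM with CHIR99021 and from 42.0 and 46.5 to 17.2 and 18.1 CPM with induced beta-catenin (0.92 ± 0.19, adjusted p = 0.00286).

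Genes of primed pluripotency fell in both arms, 18 of 24 with CHIR99021 and 14 with induced beta-catenin, and 7 differences were called lower and 0 higher, with a median of -0.27. The share called was 29.2%, against 4.95% of all genes. The differences of the core factors POU5F1 and NANOG were not called, at 0.14 ± 0.15 (adjusted p = 0.685) and 0.64 ± 0.33 (adjusted p = 0.318). NANOG was 82.7 and 77.3 then 92.6 and 118 CPM against 55.8 and 72.3 then 51.2 and 58.8 CPM, apart at both hours, and the fit of 8 libraries called it (0.74, adjusted p = 0.0395). POU5F1 was 984 and 974 then 689 and 772 CPM against 994 and 1236 then 710 and 802 CPM. SOX2, the third core factor, was 159 and 160 then 115 and 120 CPM against 216 and 247 then 325 and 279 CPM. Its difference was -0.82 ± 0.21 (adjusted p = 0.0200), lost on leaving out any library but bcat 0 h replicate 2 and bcat 24 h replicate 2 (-0.85 to -0.66, adjusted p 0.0556 to 0.125).

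FOXD3, a forkhead factor of pluripotent cells and neural crest, fell with CHIR99021 from 19.0 and 19.9 to 0.796 and 1.66 CPM and with induced beta-catenin from 4.70 and 5.67 to 2.30 and 2.23 CPM. The difference was -2.62 ± 0.46 (adjusted p = 6.21e-04), and it was -3.37 without CHIR 24 h replicate 2. PODXL, a sialomucin of the pluripotent cell surface, was 1270 and 1236 then 541 and 597 CPM against 855 and 847 then 1015 and 817 CPM (-1.24 ± 0.23, adjusted p = 0.00132). USP44, a deubiquitinase, fell from 362 and 390 to 104 and 109 CPM against 163 and 222 to 110 in both libraries (-0.998 ± 0.18, adjusted p = 0.00109). The count of 7 was 5 without CHIR 0 h replicate 2, either CHIR 24 h library, bcat 0 h replicate 1 or bcat 24 h replicate 1, and 4 without both bcat libraries in doubt.

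Of 15 neural ectoderm genes, GBX2, SOX3 and ZIC5 were called lower and 0 higher (20%, against 4.95% of all genes), with a median of -0.92. ZIC5, a zinc finger factor, fell from 100.5 and 99.8 to 55.0 and 60.6 CPM with CHIR99021 and was 68.8 and 62.6 then 74.7 and 68.4 CPM in the bcat arm (-0.92 ± 0.19, adjusted p = 0.00347). SOX3, a relative of SOX2, gave -1.33 ± 0.30 (adjusted p = 0.00684), lost without both bcat libraries in doubt (-0.9995, adjusted p = 0.138). Among mesenchymal genes, 3 of 21 were called higher and 2 lower, or 3 and 0 without either bcat 0 h library and 2 and 1 without CHIR 0 h replicate 1. The share of the mesenchymal list called was 23.8%, against 4.95% of all genes. VIM, the intermediate filament vimentin, rose from 120 and 109 to 378 and 418 CPM with CHIR99021 and from 134 and 166 to 230 and 214 CPM with induced beta-catenin (1.24 ± 0.20, adjusted p = 2.08e-04). CDH2, N-cadherin, rose in both arms, from 37.3 and 41.0 to 149 and 145 CPM against 34.1 and 35.0 to 81.6 and 73.8 CPM (0.74 ± 0.17, adjusted p = 0.00851), and was lost without CHIR 0 h replicate 1 or bcat 24 h replicate 2 (0.67 to 0.68, adjusted p 0.0517 to 0.0543).

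YAP-TEAD targets were called lower in 6 of 13 and higher in 0, against 3.3% and 1.65% of all genes, with a median of -0.88. AMOTL2 was the only one of the 6 called under each alternative. The count was 4 with DESeq2 size factors. It was 4 when CHIR 0 h replicate 2 was left out, 3 for replicate 2 of CHIR 24 h or of bcat 0 h, 2 for replicate 1 of CHIR 0 h, CHIR 24 h or bcat 24 h, and 1 for bcat 0 h replicate 1, bcat 24 h replicate 2 or both bcat libraries in doubt. Of 22 epithelial junction genes 4 were called lower and 0 higher, with a median of -0.37, which became 1 with DESeq2 size factors, 1 or 2 with any of the 8 libraries left out and 0 without both in doubt. TJP1, a tight junction scaffold, was the steadiest of these (-0.73 ± 0.16, adjusted p = 0.00457), lost without both in doubt (-0.63, adjusted p = 0.0987).

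Of all genes tested 4.95% were called, against 5.88% of the cardiac, 6.25% of the endothelial and 6.25% of the endoderm list. Among lineage lists with few calls, TFAP2C, an AP-2 factor, was called higher in both the neural crest and the amnion and trophoblast lists. It was 2.71 and 3.11 then 3.08 and 4.25 CPM against 27.9 and 26.4 then 9.71 and 8.10 CPM, higher in the bcat arm at both hours with the wider gap at 0 h (1.97 ± 0.34, adjusted p = 6.31e-04). KDR, a VEGF receptor that pluripotent cells also express, was called higher in the cardiac and the endothelial lists, 159 and 160 then 111 and 109 CPM against 195 and 258 then 59.7 and 61.8 CPM. Its difference of 1.37 ± 0.33 (adjusted p = 0.0139) was lost without either CHIR 0 h library or bcat 0 h replicate 2 (1.15 to 1.38, adjusted p 0.0527 to 0.0769). Of 25 CDX, EVX and HOX genes 0 were called by edgeR, although 7 rose with CHIR99021 and 6 with induced beta-catenin. DESeq2 also called 0 of these, 1 had an unadjusted p below 0.05, and 1 was called without bcat 0 h replicate 1. In the remaining lists, 0 of 16 endoderm genes were called higher and 1 lower, 2 and 0 of 16 presomitic genes, and 1 and 1 of 19 NRF2 targets, or 0 and 0 without both bcat libraries in doubt. Of 22 p53 targets 1 was called higher and 1 lower, against 3 and 0 with DESeq2 size factors or DESeq2, 5 and 0 in the fit of 8 libraries and 0 and 0 without both in doubt. By edgeR 0 of 13 mitochondrially encoded mRNAs were called (0 at an unadjusted p below 0.05 and 0 by DESeq2) and 0 of 10 fibroblast markers (1 at an unadjusted p below 0.05 and 1 by DESeq2).

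**Figure D4:**
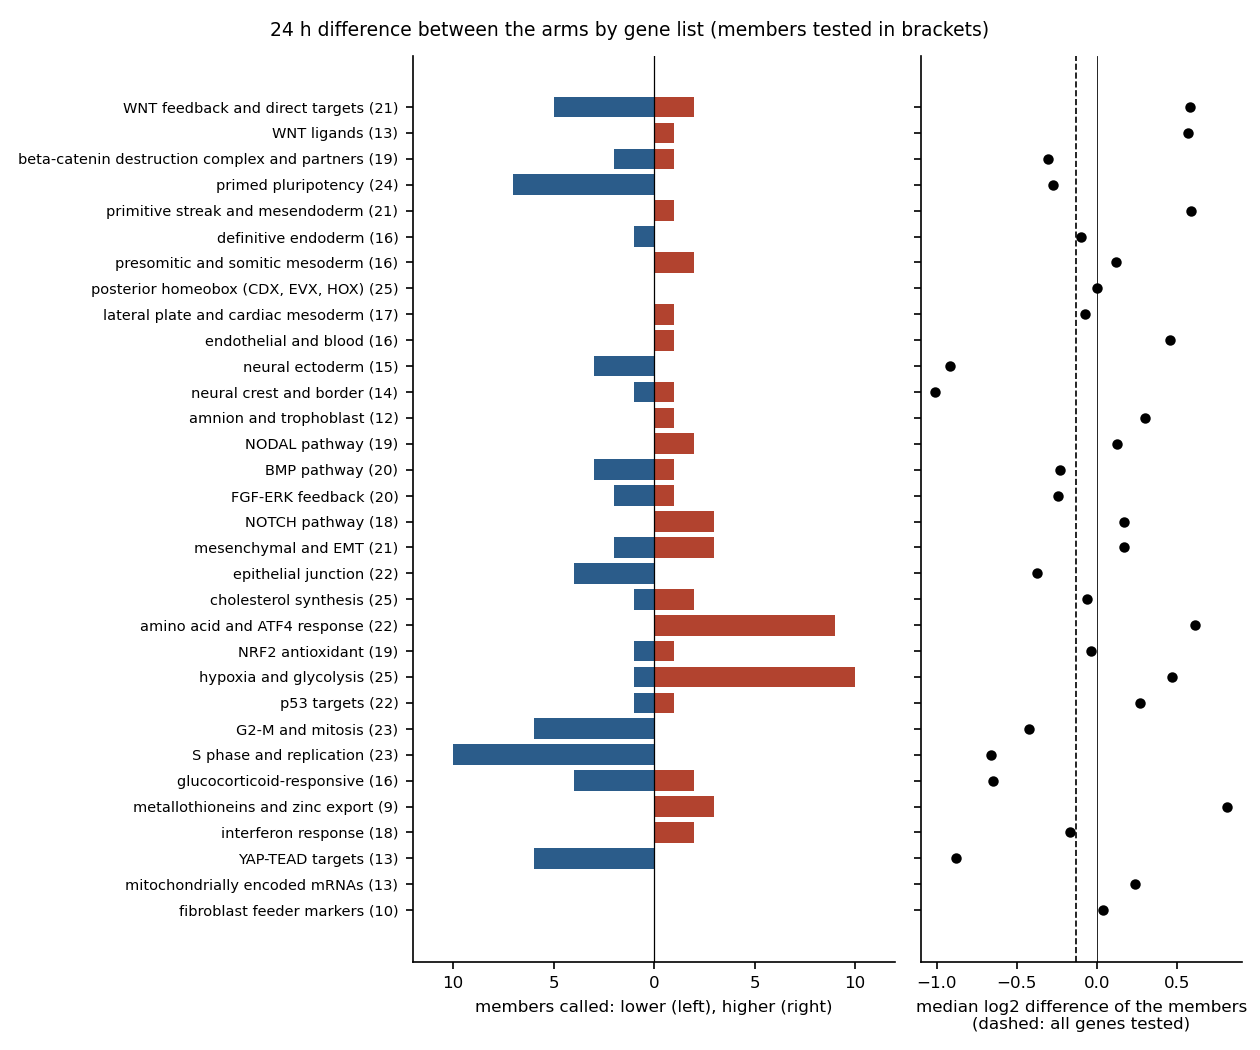
Number of members with a called 24 h difference for each of 32 gene lists, lower to the left and higher to the right, and the median log2 difference of each list's tested members beside the dashed line for all genes (-0.14). The most calls in 1 direction stand in the glycolysis list (10 higher), the S phase list (10 lower) and the ATF4 list (9 higher). Of all genes tested, 1.65% were called higher and 3.3% lower.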

How the data were processed

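RNA of 38 samples was measured by sequencing, and the authors deposited 1 table of estimated counts per gene symbol, made with kallisto 0.43.0 per the submitters' processing notes. Genome build and annotation: not given in the sources used here. Each deposited column was divided by 1 constant, found from its low values, and rounded to whole numbers. Both Wnt3a 72 h columns hold identical values and counted as 1, which left 37 libraries in 19 groups. The model was edgeR 4.0.16 (R 4.3.3), quasi-likelihood, with TMM scaling and edgeR's filter on low counts, with 24304 genes tested, 18 residual degrees of freedom and Benjamini-Hochberg adjusted p below 0.05 as a call. Standard errors are the log2 value divided by the square root of the F statistic. Sample titles of the Wnt3a arm call the replicates biological, but the labels do not say that replicates were separate cultures. The p-values therefore measure only the spread between these libraries. Genes are named as the 14 largest called differences in each direction, among those with a mean of 5 CPM or more in the highest group and all changes in 1 arm beyond all in the other (clone names, pseudogenes and small RNAs left out), as up to 4 called members in each direction of each of 32 lists, and as 12 WNT, streak and pluripotency genes. The members and lists were chosen with earlier results of these data known. Bounds (3 counts) and 95% intervals cover counting error only. In 27 entries the symbol had been turned into a date, and these are not named. DESeq2 1.42.0, other scalings and filters, a replicate block and left-out libraries were alternatives. On simulated data the procedure recovered 40 of 100 genes changed 2-fold and 84 of 100 changed 4-fold, and it called 3 unchanged genes. The changed genes had a mean of at least 1 CPM, so recovery of genes of fewer counts was not measured. Apart from the added change, each gene had 1 mean in all groups. Gaps between the untreated arms and unequal ribosomal RNA were therefore not simulated. A difference that was not called can therefore still be 2-fold or more. Some called genes are not reported here.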

Additional observations from a re-analysis of the deposited data

Results flagged for a closer look

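The changes of the arms differed, by a test of the difference itself, for 1202 genes, and 83 of these rose in 1 arm and fell in the other with both changes called. Among the genes named by rule, both changes were called in opposite directions for 13. GABBR2 (4.20), PCDH10 (3.60), CHAC1 (3.33), HRASLS5 (3.15), FGF4 (3.08) and BNIP3 (1.49) rose with CHIR99021 and fell with induced beta-catenin, as log2 differences. AIM1 (-3.48), MYCN (-2.99), MXD4 (-2.89), CTNNB1 (-2.60), ID3 (-2.49), ID1 (-1.59) and FZD7 (-1.50) fell with CHIR99021 and rose with induced beta-catenin. Groups of 2 libraries are too small for a test of single outlying libraries.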

How the results depend on the processing

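Of 104 named genes with a called difference, 46 kept the call under all 16 alternatives, and no gene called in both changed sign in any. Over 1819 pairs of a named gene and an alternative, 1499 kept direction and side of the threshold, 303 lost the call, 9 gained it and 8 reversed. The reversals were all of genes without a call: SP5 (-4.84), MIXL1 (-1.97), EOMES (-3.72) and POU5F1 (-0.028) without bcat 0 h replicate 2, LEF1 (-0.80) and T (-1.81) without bcat 0 h replicate 1, and LEF1 (-0.55) and T (-1.66) without both bcat libraries in doubt. The highest values with 1 library left out were 1.504 for SP5, 2.42 for LEF1, 3.97 for T, 5.33 for MIXL1, 0.68 for EOMES and 0.30 for POU5F1. Without both bcat libraries in doubt 433 differences were called, with 1474 changes in the bcat arm and 2484 genes between the untreated arms, in a fit with fewer samples. With 1 library left out, 666 to 1023 differences, 2134 to 3657 changes in the CHIR arm, 1901 to 3028 in the bcat arm and 2378 to 3758 between the untreated arms were called, where a lone library is assumed to vary like the other groups. Deviations of same-numbered libraries were not correlated across genes (-0.03 to 0.03). Counting error in genes of few counts enters these correlations, so they cannot decide whether the numbers pair samples. The replicate block gave 1126 calls, 375 higher and 751 lower, and 1069 of the genes were shared. DESeq2 called 1747, the 8 libraries alone 1437, no filter 1398, library sizes without ribosomal and mitochondrial transcripts 1573 and the deposited values rounded 1266. Depth limits genes near 0 counts at bcat 0 h.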

Other observations

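The groups below were chosen after their values were seen, so their counts support nothing beyond these libraries. Of all genes tested, 1.65% were called higher and 3.3% lower. Of 12 RNA-binding and splicing factors outside the SR and hnRNP families, 9 differences were called lower and 0 higher, with a median of -1.17 against -0.14 for all genes, and 8 with DESeq2 size factors or without both bcat libraries in doubt. TRA2B, a splicing activator, was 245 and 244 then 117 and 114 CPM against 129 and 181 then 188 and 183 CPM (-1.32 ± 0.16, adjusted p = 5.68e-06). Of 12 SR proteins 4 were called lower and 0 higher, and SRSF1 went from 498 and 505 to 183 and 189 CPM against 341 and 380 to 282 and 290 CPM (-1.09 ± 0.15, adjusted p = 2.40e-05). Of 18 hnRNP proteins 4 were called lower, 2 with DESeq2 size factors, 0 to 3 with 1 library left out and 0 without both in doubt.

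Of 13 DNA methylation and Polycomb genes, 6 were called lower and 0 higher, against 3.3% and 1.65% of all genes. UHRF1, already counted in the S phase list, is among the 6. DNMT3A, a de novo DNA methyltransferase, was 125 and 135 then 61.7 and 64.2 CPM against 69.4 and 80.1 then 94.6 and 90.7 CPM (-1.35 ± 0.20, adjusted p = 7.93e-05). EZH2, the Polycomb methyltransferase, was 39.1 and 45.5 then 26.1 and 24.8 CPM against 27.0 and 26.6 then 41.5 and 40.9 CPM (-1.36 ± 0.20, adjusted p = 9.39e-05). Cell death regulators of the BCL2 family were called in both directions, 2 of 14 each. BCL2L11, which promotes cell death, was 12.7 and 13.4 then 38.7 and 43.5 CPM against 34.4 and 29.7 then 32.8 and 38.2 CPM (1.49 ± 0.20, adjusted p = 1.95e-05). Its arms ended closer together than they started, with the CHIR 24 h libraries just above the bcat 24 h libraries. BMF, of the same class, was 31.1 and 27.1 then 7.56 and 9.26 CPM against 34.4 and 33.5 then 40.1 and 35.5 CPM, with a narrow gap at 0 h and a wide one at 24 h (-1.92 ± 0.23, adjusted p = 2.92e-06).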
